A study of Mus musculus with 4 samples.

Results

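Among 5481 single cells of a cultured, sorted mouse muscle stem cell population, 467 cells (8.52%, 95% exact binomial interval 7.79 to 9.29) carried under 1000 CPM of Malat1, that is UMIs per 1000000 UMIs of the cell. These Malat1-poor cells were chosen by that level alone, with UMIs (unique molecular identifiers, 1 per captured transcript) summed over 4 files. Muscle stem cells of MyoD-KI mice had been grown in culture for 5 days and sorted as MyoD-tdTomato high, where a red fluorescent protein reports MyoD, a transcription factor of the muscle lineage. All cells analysed here belong to that 1 group, so the knock-in allele, the culture and the sort are shared by every cell compared. A MyoD-tdTomato low population is named in the labels and was not analysed here. The labels do not say how many mice were used, and they name no sex or age.

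Malat1 is an abundant long non-coding RNA that stays in the nucleus, where it lies in nuclear speckles. Neat1 is the scaffold RNA of paraspeckles, and Kcnq1ot1 is a chromatin-bound RNA that silences genes of an imprinted cluster. Unspliced transcripts are also nuclear, and long genes hold most of the intronic sequence, while mRNAs of ribosomal proteins, tubulins and glycolytic enzymes are mostly found in the cytoplasm.

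The 4 files, labelled replicates 1 to 4, held 68391013, 68898900, 67157284 and 62627341 UMIs. They shared their cells: 5944 of 5985 barcodes were in all 4, and every pair shared at least 99.88% of the barcodes of the smaller file. They were therefore counted as 1 sample, no test between cells or files was made, and ranges over files show repeat measurement only. Kept cells were barcodes in all files with a mean of at least 1000 genes and under 10% mitochondrial UMIs, which left out 463. Markers of other cell types were near 0 in the Malat1-poor cells. The summed level per file was at most 0.496 CPM for 8 erythroid genes, 1.80 for 5 platelet genes, 2.27 for 8 leukocyte genes, 1.85 for 7 fibroblast genes, 0.682 for 6 endothelial genes and 5.00 for 5 Schwann cell genes. Ptprc, Adgre1, Cdh5, Kdr, Sox10 and Alas2 were at 0 in all files. A list of 6 pericyte genes reached 43.1 to 45.9 CPM against 96.8 to 101 expected, most of it Notch3, and 3 of its 5 tested genes were lower. No doublet caller was run, and 3 of the 467 cells (0.642%) lay above the 95th percentile of UMIs of the other cells.

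The choice of cells fixed a wide gap in Malat1 itself. The median was 296 CPM, or 10 UMIs over the 4 files, against 7199 CPM and 329 UMIs in the 5014 kept cells at or above the threshold. No Malat1 UMI was seen in any file in 9 Malat1-poor cells. Of the 467, 390 (83.5%) were under 1000 CPM in each file taken alone, and 102 of the other cells were under it in at least 1 file. The distribution of Malat1 had a main mode near its median and a long tail to low values, with no gap at the threshold. The 50 cells at 800 to 1000 CPM and the 57 cells at 1000 to 1250 CPM lay on both sides of it: their median share of UMIs from protein-coding genes over 100 kb was 5.30% and 5.37%, and their median mitochondrial share was 3.52% and 3.33%. The Malat1-poor cells are a range of a measured level, and whether they hold a separate group was not tested.

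**Figure D1:**
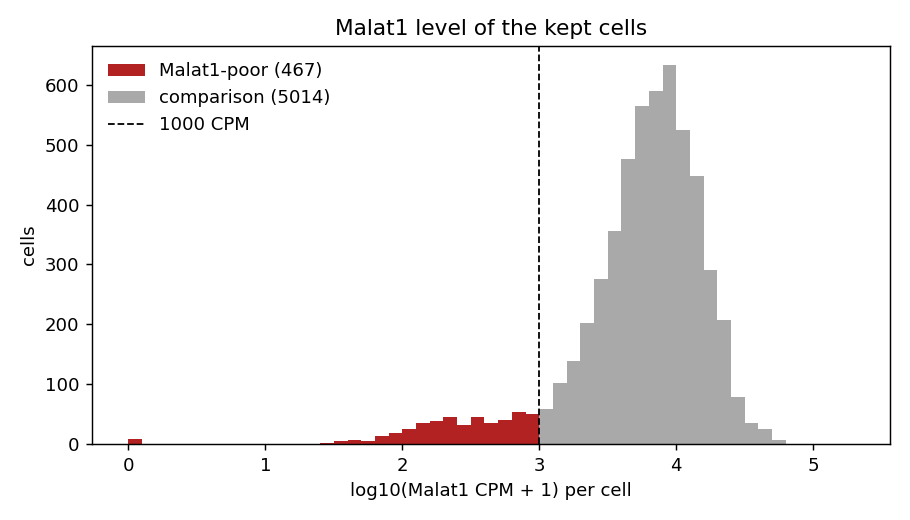
Number of kept cells (y axis) by log10 of Malat1 CPM plus 1 (x axis), with the 467 Malat1-poor cells in red, the 5014 other cells in grey and the threshold of 1000 CPM dashed. Red and grey meet at the threshold without a gap, and the 9 cells with no Malat1 UMI form the bar at 0.

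Per cell, the Malat1-poor cells held fewer UMIs and genes, and the make-up of their UMIs differed. Their median was 8676 UMIs and 2490 genes per file, against 11290 UMIs and 3296 genes in the other cells. Protein-coding genes over 100 kb gave a median of 3.45% of UMIs, against 9.66%. Nuclear RNAs other than Malat1, a list of 19 long non-coding RNAs, had a median of 321 CPM against 1531 CPM. Ribosomal protein mRNAs took a larger share, 27.7% against 22.7%, and mitochondrially encoded mRNAs a smaller one, 2.27% against 3.74%.

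The long-gene share and the nuclear RNAs were low in the same cells. In 427 Malat1-poor cells (91.4%, interval 88.5 to 93.8) the long-gene share was under the 5th percentile of the other cells. In 410 (87.8%, interval 84.5 to 90.6) the nuclear RNAs other than Malat1 were under theirs. Both held in 399 cells (85.4%) and neither in 29 (6.21%), while both held in 2.31% of the other cells. Among the 467 cells Malat1 had a Spearman rho of 0.73 with the long-gene share, 0.66 with the other nuclear RNAs and 0.53 with the mitochondrial share. These values are across cells of the same libraries that share depth, and describe them only.

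**Figure D2:**
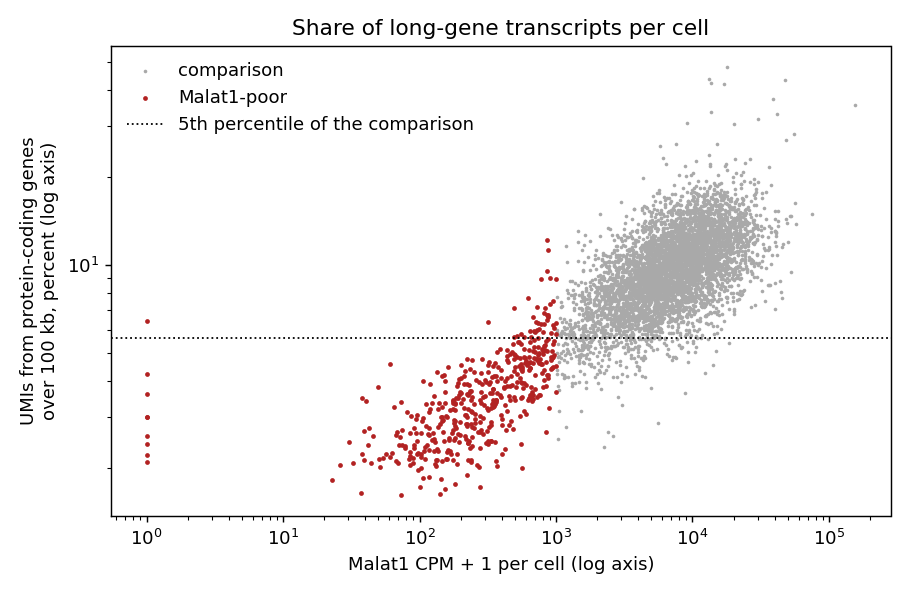
Percent of UMIs from protein-coding genes over 100 kb (y axis, log) against Malat1 CPM plus 1 (x axis, log), 1 point per kept cell, Malat1-poor in red. Most red points (427 of 467) lie under the dotted line, the 5th percentile of the grey comparison cells.

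Malat1-poor cells were found in every class of muscle state. They were 10.7% of cells with Myog under 400 CPM (275 cells, interval 9.52 to 12.0), 10.2% at 400 to 1500 CPM (59 cells, 7.85 to 12.9) and 5.71% at 1500 CPM and over (133 cells, 4.80 to 6.73). Myog encodes myogenin, which marks cells entering terminal differentiation. By the summed level of Mki67 and Top2a, genes of dividing cells, they were 7.33% under 75 CPM, 15.5% at 75 to 150 CPM and 9.09% at 150 CPM and over. The highest share, 22.5% (41 of 182 cells, interval 16.7 to 29.3), was in cells with Myog under 400 CPM and the middle level of Mki67 and Top2a. Mki67 and Top2a, of 26.6 and 31.2 kb, were themselves low in the Malat1-poor cells, by 0.84 and 0.69 on the log2 scale within classes. The cycle class of a Malat1-poor cell may therefore be set too low, so these shares do not show its cycle state. How far this moved cells between classes was not tested. Since these classes differ in share, genes were compared within them. For each gene the expected UMIs were those that the other cells of the same 9 Myog and cycle classes would give at the Malat1-poor cells' total UMIs. A ratio is observed over expected, on a log2 scale, with a 95% interval for counting error only.

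The matching left differences within the classes. Myog was at 1411 CPM where 1211 was expected, Mki67 at 96.8 where 174 was expected and Top2a at 180 where 289 was expected. Malat1 was at 371, 363, 381 and 373 CPM in replicates 1 to 4, where 8818 to 8859 was expected. It lies on chromosome 19 (chr19:5795690-5802672, minus strand of GRCm38) as a single exon.

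A gene was called lower or higher where its ratio was at least 1.5-fold in the same direction in each file and its interval left out 1. Of 10983 genes with enough UMIs, 3612 (32.9%) were lower and 258 (2.35%) were higher. The rule that chose the cells used this same contrast, so counts of genes are a description. The median ratio over all genes was -0.37, and list medians below are to be read against it. Of all calls, 93.3% were lower. That share was 55.1% when ratios were centred on the median gene, 56.3% with trimmed-mean scaling and 99.9% for UMIs per cell that were not divided by the cell's total. A Malat1-poor cell gave a mean of 9205 UMIs per file where 12154 were expected (log2 -0.40).

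Long non-coding RNAs known to stay in the nucleus fell together: 15 of the 15 tested members besides Malat1 were lower, against the 32.9% of all genes. Summed, they stood at 371 CPM where 1678 was expected (log2 -2.18, interval -2.25 to -2.10, files -2.20 to -2.15). The sum remained negative under each alternative tried, from -2.77 to -1.44. Of the remaining listed RNAs, Snhg14 and Peg13 had too few UMIs for a call, Snhg11 had none in the Malat1-poor cells and Miat none in either set.

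Kcnq1ot1 (chr7:143203458-143296549, minus strand, 1 exon antisense to Kcnq1) was at 17.3, 14.9, 14.6 and 14.6 CPM in replicates 1 to 4, where 171 to 175 was expected. No file came near the expected level, and the ratio was -3.50 (interval -3.87 to -3.15). Neat1 (chr19:5824708-5845478, minus strand, 1 exon) was at 35.0, 42.4, 41.6 and 40.4 CPM, where 208 to 211 was expected. Its ratio was -2.40 (interval -2.62 to -2.18), again with every file far below. Both are unspliced in the annotation.

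The chromatin-bound RNAs of X inactivation and imprinting fell by different amounts. Xist, which coats the inactive X chromosome (chrX:103460366-103483254), was at 154, 150, 156 and 142 CPM where 392 to 403 was expected, a ratio of -1.40 and the smallest fall of the 15. Tsix, its antisense partner, fell by 4.12 on the log2 scale, to 1.27 CPM from 22.3 expected. The strand setting of the counting is not given in the sources used here, so reads of Xist and Tsix, and of other antisense pairs, may have been exchanged. Airn, which silences an imprinted cluster, was at 59.7 CPM where 350.5 was expected (-2.55). Meg3, from another imprinted cluster, was at 21.3 CPM where 72.7 was expected (-1.76).

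Long non-coding RNAs that host small nucleolar RNAs or are mostly cytoplasmic behaved otherwise. Of 14 tested, 1 was lower and 0 were higher, beside 32.9% and 2.35% of all genes. The median ratio was 0.08, although the median was -0.31 for UMIs per cell. H19 was at 1638 CPM where 1646 was expected, and Gas5 at 445 where 404 was expected. The single lower member was 2900097C17Rik, the mouse Norad locus, at 51.1 CPM where 84.1 was expected (-0.72).

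**Figure D3:**
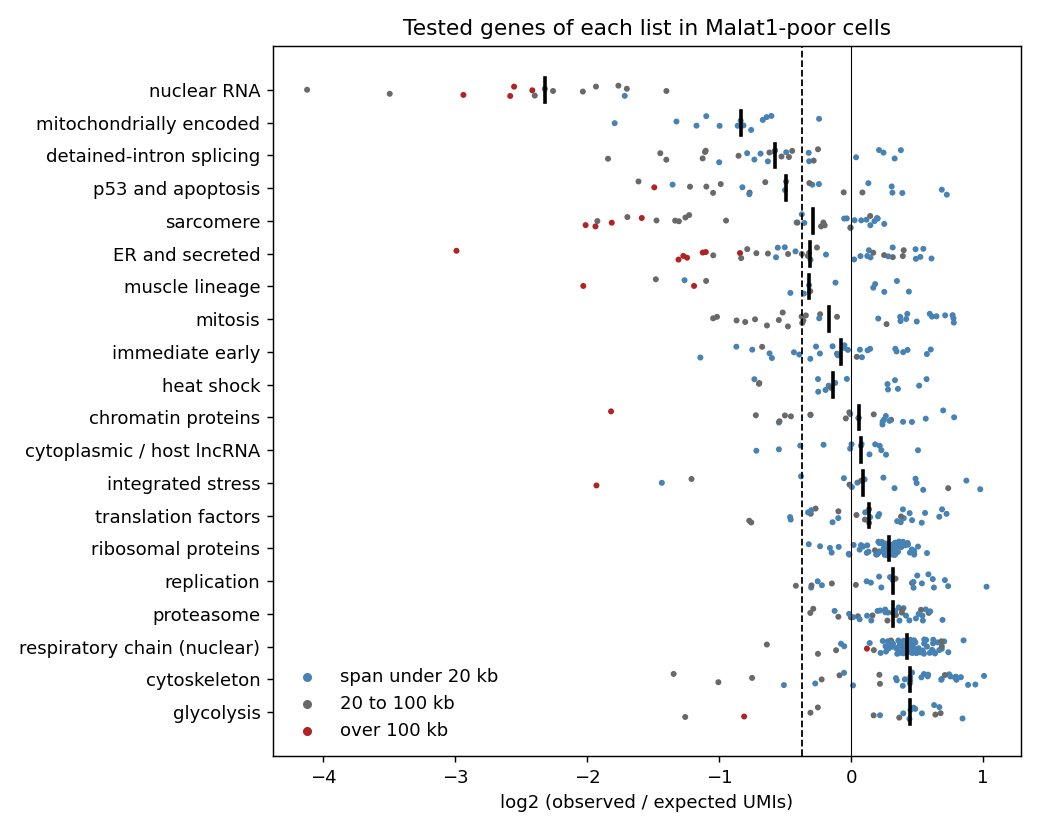
Ratio on the log2 scale (x axis) for each tested gene of 20 gene lists (y axis), coloured by genomic span, without Malat1, Myog, Mki67 and Top2a, with the median of each list as a black bar and the median of all genes (-0.37) dashed. The nuclear RNAs stand furthest to the left, and where a list holds genes over 100 kb (red) they mostly lie to the left of those under 20 kb (blue).

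Genomic span ordered the protein-coding genes, taken in 5 classes of equal size. In the shortest class, up to 8.89 kb, the median ratio was 0.30, with 2.51% lower and 7.92% higher. The median was 0.03, -0.32 and -0.78 in the next classes. In the longest class, from 76.6 kb, it was -1.43, with 82.4% lower and 0% higher. For UMIs per cell the order was the same, from -0.10 to -1.84. Of the 107 tested protein-coding genes over 500 kb, 104 were lower, with a median of -2.58.

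**Figure D4:**
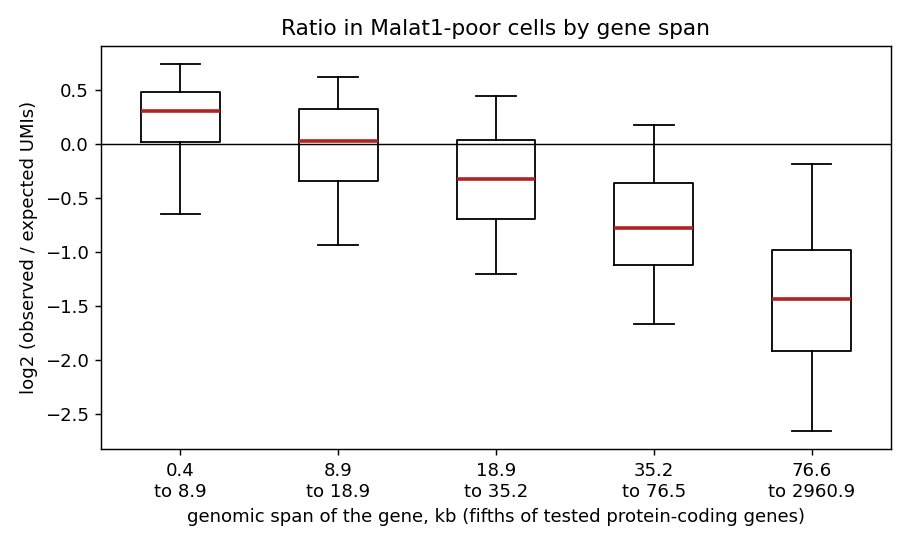
Ratio on the log2 scale (y axis) of tested protein-coding genes in 5 equal classes of genomic span in kb (x axis). The red line is the median, the box the 25th to 75th percentile and the whiskers the 5th to 95th percentile of genes, and the medians step down from 0.30 to -1.43.

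Span and exonic length move together, and both were low in the genes that were higher. Lower genes had a median span of 75.9 kb and higher genes 6.30 kb. Within the longest class of span the median ratio went from -0.98 at the shortest exonic length to -1.67 at the longest. Within the shortest class of span it went from 0.36 to 0.12. Transcript GC content made less difference within a span class: 0.17 at the lowest and 0.38 at the highest GC in the shortest class, and -1.43 and -1.21 in the longest. The 241 tested protein-coding genes of a single exon had a median of 0.11.

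Of the 7 protein-coding genes among the 15 lowest, 6 spanned over 200 kb. Dlg2, which encodes a synaptic scaffold protein (chr7:90476672-92449247, plus strand), was at 24.8, 22.5, 26.6 and 24.5 CPM in replicates 1 to 4, where 371 to 374 was expected. That is a ratio of -3.92 (interval -4.21 to -3.64), and Gm45159, a long non-coding gene inside the Dlg2 interval, had -4.61. Fhit, which spans a fragile site, fell by 3.74 on the log2 scale, Pde7b, a phosphodiesterase, by 3.70, and Hs6st3, a heparan sulfate sulfotransferase, by 3.78. Pcdh9, a protocadherin, had -4.34 on 6 UMIs over the 4 files (interval -8.14 to -2.23). Pcdh9 had -2.59 without replicate 2 and -4.98 without replicate 4, where the cells and classes were also chosen again from the files left. The seventh and lowest was Cd46, a complement regulator of 55.4 kb, with 3 UMIs over the 4 files where 83.3 were expected (-4.79, interval -11.64 to -2.01). Adamts6, a secreted protease, had -3.83.

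Much of the rest of the lowest 15 was antisense or unclassified non-coding RNA. Gm42836 gave 1 UMI over the 4 files where 112 were expected, a ratio with an interval up to -2.72. Gm11149 gave 45 UMIs where 765 were expected (-4.09). 1700109K24Rik, Gm16093, Gm14636 and Gm28376 had ratios of -4.22 to -4.06.

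Genes encoded by the mitochondrial genome fell too, although their transcripts are not nuclear. Of 13 tested, 12 were lower, beside 32.9% of all genes. The sum of the 13 was at 2.27% of UMIs where 3.63% was expected (log2 -0.68, interval -0.69 to -0.67). The lowest was mt-Nd6, at 10.0, 11.5, 11.6 and 12.4 CPM where 38.5 to 39.7 was expected (-1.79). It is the only one of the 13 encoded on the light strand. The other 6 complex I genes, mt-Nd5, mt-Nd3, mt-Nd1, mt-Nd2, mt-Nd4l and mt-Nd4, had -1.32, -1.17, -1.10, -0.997, -0.82 and -0.64. The cytochrome oxidase mRNAs mt-Co1, mt-Co2 and mt-Co3 had -0.84, -0.67 and -0.60. The only one not called was mt-Cytb, at 4445, 4332, 4348 and 4399 CPM where 5154 to 5213 was expected (-0.24). The cell filter bounds this share from above in both sets. When cells were also matched on the mitochondrial share in 5 classes, the mitochondrial sum was at -0.23 and that of the nuclear RNAs at -2.08. The matching was on the share that is summed, so the smaller mitochondrial difference followed from it.

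The nuclear-encoded subunits of the same respiratory chain did not share this fall. Of 83 tested, 77 spanned up to 25.8 kb. In all, 0 were lower and 11 were higher, beside 32.9% and 2.35% of all genes, with a median of 0.43. The median for UMIs per cell was 0.02. Uqcrc1, of complex III, was at 378 CPM where 209 was expected (0.85), Cox5b, of complex IV, at 1332 where 827 was expected (0.69), and Ndufa3, of complex I, at 315 where 189 was expected (0.74). All 79 tested ribosomal protein genes stayed within 1.5-fold, with a median of 0.29 that became -0.11 for UMIs per cell. Proteasome subunits had a median of 0.32 (-0.08 for UMIs per cell), with 1 of 37 higher, Psmb3, beside 2.35% of all genes.

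Cytoskeleton genes held the largest share of higher members in any list: 12 of 35 were higher and 3 lower, beside 2.35% and 32.9% of all genes. Of the 35, 28 spanned up to 25.8 kb, and in the shortest class of span 7.92% of genes were higher. The list median was 0.45, and 0.08 for UMIs per cell. The tubulins Tuba1c (147 CPM, 73.2 expected, 1.01), Tubb5 (1146 CPM, 597 expected, 0.94) and Tuba1a (1088 CPM, 588.5 expected, 0.89) rose, as did Cfl1, which severs actin filaments (0.83). Lgals1, a galectin, was at 11824 CPM where 6800 was expected (0.80). The 3 lower members were Myh9, Actn4 and Actn1, with spans of 81.6, 69.1 and 92.8 kb. Glycolysis genes had 5 of 18 higher and 2 lower, beside the same shares of all genes. Their median was 0.45, and 0.05 for UMIs per cell. Split at 25.8 kb, the 12 shorter genes had a median of 0.48 and the 6 longer ones -0.28. Gapdh was at 5515 CPM where 3072 was expected (0.84) and Pkm at 1827 where 1142 was expected (0.68). Hk2 and Hk1, the hexokinases that start the pathway, span 49.4 and 111 kb and fell by 1.26 and 0.81 on the log2 scale.

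Sarcomere genes were called about as often as all genes: of 32, 12 were lower (37.5%, beside 32.9% of all genes) and 0 higher, with a median of -0.29. That median was 0.08 when ratios were centred on the median gene and -0.93 without matching. Ttn, the giant spring of the sarcomere, was at 546 CPM where 2204 was expected (-2.01), and Neb, the thin filament ruler, at 328 where 986 was expected (-1.59). The myosin heavy chains Myh8, Myh1 and Myh3 had -1.70, -1.47 and -1.31. Acta1, skeletal actin, was at 1425 CPM where 1400 was expected, and Tnnc1, a troponin, at 601 where 543.5 was expected. Split at 25.8 kb, near the median span of tested genes, 2 of the 18 shorter sarcomere genes were lower (Myh1 and Myh3, median of the 18 -0.02), against 10 of the 14 longer ones (median -1.30). Myl4, Tnni1 and Smpx, of 45.1, 31.6 and 53.7 kb, had -0.01, 0.14 and -0.21 and were not called. The summed sarcomere level was furthest from expected in cells with Myog at 400 to 1500 CPM (-1.12, 59 cells), against -0.32 below and -0.18 above that range. In that middle class some shorter genes were also far below expected, such as Actc1 (-3.25) and Myl1 (-2.56), while Tnnt1 had -0.10 and Des 0.19. Myog itself had -0.20 there. The split by span was made over all classes together.

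Of the muscle lineage genes, 5 of 15 were lower (33.3%, a share near the 32.9% of all genes) and 0 higher. They were 4 of the 4 longer genes and 1 of the 11 shorter ones, Six4. Mef2a, a transcription factor gene of 141.7 kb, was at 134 CPM where 549 was expected (-2.03), Mef2c, of 163.0 kb, at 114 where 259 was expected (-1.19), and Pax7, which marks muscle stem cells, of 96.5 kb, at 26.5 where 73.6 was expected (-1.48). Myod1, the gene that the reporter stands for, was at 631 CPM where 466 was expected (0.44), and not called. The list median, here with Myog, was -0.31, and 0.06 when ratios were centred on the median gene.

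Splicing regulators known for detained introns, whose partly spliced transcripts stay in the nucleus, had 12 of 28 lower (42.9%, beside 32.9% of all genes) and 0 higher, with a median of -0.58. It remained negative under each alternative, from -0.98 to -0.21. Split at 25.8 kb, 5 of the 17 shorter genes were lower, against 7 of the 11 longer ones. Ogt (-1.84), Nktr (-1.45), Pnisr (-1.40) and Luc7l2 (-1.13) fell furthest. Clk1, a splicing kinase with a well-known detained intron, was at 23.7 CPM where 47.4 was expected, on a span of 13.9 kb. None of the 6 SR protein genes of the list was called: Srsf5, Srsf11 and Srsf6 had -0.32, -0.25 and 0.04, and Srsf2, Srsf3 and Srsf7 had 0.21, 0.24 and 0.38.

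Genes of the secretory pathway and matrix had 12 of 40 lower (30%) and 1 higher (2.5%), shares near the 32.9% and 2.35% of all genes. Split at 25.8 kb, 0 of the 21 shorter genes were lower, against 12 of the 19 longer ones. The median of the list was -0.31, or 0.06 when centred on the median gene, while its summed UMIs had 0.05. Lama2, a laminin chain gene of 639.7 kb, fell by 2.99 on the log2 scale, and Itgb1, an integrin chain, by 1.04. Cd63, a tetraspanin, was the 1 higher member (0.61). Of 24 genes of p53 and apoptosis, 9 were lower (37.5%, beside 32.9% of all genes) and 2 higher, with a median of -0.50. By span, 3 of the 16 shorter genes were lower, against 6 of the 8 longer ones. Mdm2, the p53 inhibitor, was at 42.1 CPM where 83.3 was expected (-0.99), while Bak1 and Phlda3 rose by 0.72 and 0.69. Cdkn1a, the p21 cell cycle inhibitor, was at 626 CPM where 885.5 was expected and was not called.

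Stress, cell cycle, translation and chromatin lists each had a smaller share of lower genes than the 32.9% of all genes. Most of their tested genes spanned up to 25.8 kb, from 27 of 28 immediate early genes to 16 of 30 mitosis genes. In the shortest class of span 2.51% of genes were lower and 7.92% higher. Beside 2.35% of all genes higher, immediate early and heat shock genes had 0. The other lists had a larger share, on 2 or 3 genes each. Immediate early genes, induced within minutes of handling, had 3 of 28 lower and 0 higher, heat shock genes 2 of 16 and 0, and genes of the integrated stress response 3 of 18 and 2. The lower immediate early genes were Egr1, Btg1 and Zfp36l1, each under 10 kb, where 2.69% of tested protein-coding genes were lower. Shmt2 of serine metabolism, in the integrated stress list, was higher (0.98). Replication genes had 0 of 25 lower and 2 higher, Tk1 and Tyms. Mitosis genes had 5 of 30 lower, among them the kinesin Kif11 (-1.02), and 3 higher, Cdk1, Cdc20 and Ube2c. Translation factors had 2 of 31 lower and 3 higher, and chromatin proteins 2 of 25 and 2, with Hmga2, an architectural protein, at 106 CPM where 373 was expected (-1.82). The medians of these 7 lists lay between -0.17 and 0.31, and each changed sign in at least 1 scaling. Immediate early, heat shock and mitosis genes had negative medians, while their summed UMIs had 0.11, 0.07 and 0.14.

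The 15 highest genes rose by less than the lowest fell, from 1.05 to 1.41 on the log2 scale, and all spanned under 20 kb. Sf3a2, a subunit of the splicing factor SF3A, was at 58.0, 52.8, 58.5 and 62.7 CPM, where 24.2 to 25.5 was expected (1.22, interval 1.02 to 1.42). Sf3b4, of SF3B, was at 88.6, 97.6, 102 and 96.1 CPM, where 42.8 to 46.5 was expected (1.11). All files were above all expected levels for both. Pcolce, an enhancer of procollagen processing, was at 94.9 CPM where 44.9 was expected (1.08), and Tcf19 at 29.0 where 12.8 was expected (1.19). Limd2, Mospd3 and Acd had 1.09, 1.15 and 1.06. The remaining 8, Ube2l6, Fndc10, Cyp1a1, Fgf21, Tnni3, Cox4i2, Tm7sf2 and AI467606, had at most 12.0 CPM.

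For UMIs per cell, 7 genes were higher: Fndc10 (0.98), Sf3a2 (0.82), Tcf19 (0.79), Mospd3 (0.77), Sf3b4 (0.72), Limd2 (0.70) and Pcolce (0.70). By class, a Malat1-poor cell gave 332 UMIs from protein-coding genes over 100 kb where 1198 were expected, 1577 from those of 20 to 100 kb where 2693 were expected, and 4427 from those under 20 kb where 4746 were expected. The mitochondrial mRNAs gave 209 UMIs where 441 were expected, and the ribosomal protein mRNAs 2540 where 2770 were expected. None of these 5 classes exceeded its expected UMIs per cell.

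The size of these differences followed the Malat1 level within the 467 cells and beyond the threshold. In the 209 cells under 250 CPM the nuclear RNAs other than Malat1 had a ratio of -3.11, the long genes -1.82 and the mitochondrial genes -1.15. In the 113 cells at 250 to 500 CPM they had -2.26, -1.46 and -0.65, and in the 145 cells at 500 to 1000 CPM -1.37, -1.01 and -0.19. Above the threshold the cells also make up the comparison: the 301 cells at 1000 to 2000 CPM had -0.76, -0.63 and -0.07. From 2000 CPM on, the mitochondrial genes stayed within 0.01 of 0, while the nuclear RNAs went from -0.38 to 0.23.

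**Figure D5:**
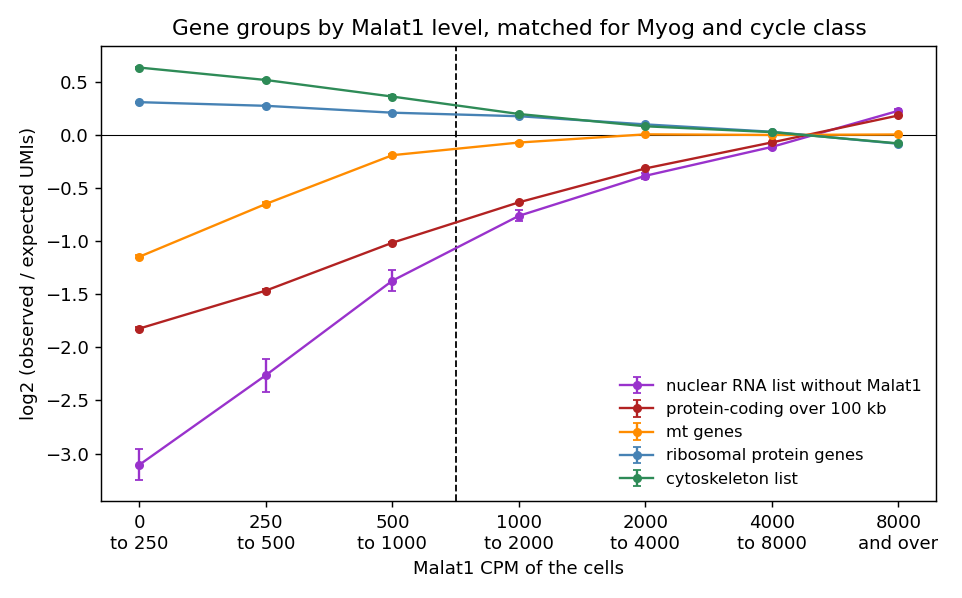
Ratio on the log2 scale (y axis) of summed gene groups in bins of Malat1 CPM (x axis), each bin against the comparison cells of its Myog and cycle classes, with 95% counting intervals. Nuclear RNAs and long genes rise across all bins, while mitochondrial genes level off above the dashed threshold of 1000 CPM.

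Nuclear RNAs and mitochondrial genes were below expected in each muscle and cycle class, by amounts that differed. With Myog under 400, at 400 to 1500 and at 1500 CPM and over, the nuclear RNAs other than Malat1 had -2.23, -2.08 and -2.11, the long genes -1.49, -1.37 and -1.39, and the mitochondrial genes -0.72, -0.47 and -0.68. In the lowest, middle and highest class of Mki67 and Top2a, the nuclear RNAs had -2.42, -2.32 and -1.93 and the mitochondrial genes -0.83, -0.84 and -0.49. The differences between classes were not tested, since all cells are 1 sample.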

How the data were processed

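Per the labels' protocols, RNA of single cells was captured at its 3-prime end on the 10x Genomics platform. The files deposited by the authors hold raw UMI counts per gene and barcode, for which the file headers name Cell Ranger 7.1.0. The submitters' processing notes name Cell Ranger 3.1.0 and the builds mm10 and GRCm39. The annotation, the strand setting and the treatment of intronic reads are not given in the sources used here. Counting intronic reads raises long genes and nuclear RNA. Of 32285 gene identifiers, 32158 (99.6%) were found in GENCODE M21 on GRCm38, by Ensembl identifier, which gave spans and coordinates; the authors' build may differ.

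The members and gene lists were chosen with earlier results of these data known. The level of a gene in CPM was computed per file and averaged over files. Observed and expected UMIs were also averaged over files, and the ratio was taken from these means. The count behind an interval is thus that of 1 file, since the files share cells. Levels per cell that set the members and the classes used UMIs summed over the 4 files. Genes needed a mean of 10 UMIs over observed and expected, which 10987 reached, 4 of them used by the rule. Intervals are exact binomial at the mean count of 1 file, and cover counting error only. Named genes are the 15 lowest and 15 highest called ratios, and list members. On simulated data for this comparison, over 32285 genes with 50 changed at each size, 100% were called at log2 -2 and 2, 92.0% at -1 and 98.0% at 1, and 0% of 11147 unchanged genes. The simulated counts were drawn independently for each file from class sums, with counting error only. They held no variation between cells and no shift of the median gene. The real files share cells, so the 0% is not an error rate of the calls made here. Python 3.11.15, numpy 2.4.6, scipy 1.17.1 and pandas 2.3.3 were used. Alternatives changed the Malat1 threshold, the scaling, the matching, the cell and gene filters and the files used.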

Additional observations from a re-analysis of the deposited data

Results flagged for a closer look

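For 7 of 54 values compared over the files, 1 file stood apart from the other files by more than Dixon's 95% limit, where chance gives about 5%. The files hold the same cells, so the distance is one between repeat measurements. Gm16093 had a log2 ratio of -3.62 in replicate 1, against -4.55 to -4.41 in the other replicates, on 5 UMIs in all. Cyp1a1 had 0.66 in replicate 1 against 1.40 to 1.46, and Fgf21 had 1.41 in replicate 4 against 1.06 to 1.11. Sf3b4 had 1.05 in replicate 1 against 1.13 to 1.14, and Limd2 had 1.04 in replicate 3 against 1.10. The median of the nuclear RNA list, here with Malat1, was -2.53 in replicate 3 against -2.38 to -2.36. The median of the proteasome list was 0.35 in replicate 1 against 0.29 to 0.30. Each of the named genes was on the same side of 1.5-fold in every file, which the rule for a call required.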

How the results depend on the processing

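Set against the alternatives, the 6 summary values moved by no more than their spread in 75 comparisons and further in 33, and none of them changed sign. For single genes and list medians, 807 comparisons stayed within the margin and 226 moved further. The list medians that changed sign are named with the lists, besides that of the Schwann cell genes, of which 1 was tested. With Malat1 under 500 CPM the share of cells was 5.87%, 400 genes were higher, the span gradient (longest minus shortest span class) was -2.08, against -1.74 as reported, the nuclear RNAs were at -2.77 and the mitochondrial genes at -0.96. At 2000 CPM these were 14.0%, 65, -1.27, -1.44 and -0.39. Centred on the median gene, 2150 genes were lower and 1749 higher, with nuclear RNAs at -1.80 and mitochondrial genes at -0.31. With trimmed-mean scaling they were 2185, 1693, -1.82 and -0.32. For UMIs per cell they were 5655, 7, -2.58 and -1.08. Without matching, 466 genes were higher and the mitochondrial genes were at -0.70. Matching also on the mitochondrial share gave a gradient of -1.64, nuclear RNAs at -2.08 and mitochondrial genes at -0.23, the last brought nearer to 0 by the matching itself. Mitochondrial genes were at -0.76 when matched on total UMIs, -0.71 with totals without Malat1 and mitochondrial genes, and -0.60 under the stricter cell filter (2000 genes, 5% mitochondrial). The gradient was -1.70 by mean CPM per cell and -1.79 with at least 30 UMIs. Leaving out each file in turn gave -0.69 to -0.67 for mitochondrial genes and 293 to 308 higher genes, from 3 files to pass in place of 4. The Malat1-poor cells were then chosen again from the files left, 465 to 471 cells. Leaving out the members of the 2 smallest classes, an alternative chosen after seeing the data, changed no summary value beyond the margin. The cause of these differences was not tested where the setting does not show it. No paired analysis was possible because there is 1 group. Intronic reads could not be told apart from exonic ones, and 1 sample gives no error between animals or cultures.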

Other observations

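Some short genes were also lower. Of 2381 tested protein-coding genes under 10 kb, 64 were lower (2.69%) and 177 higher (7.43%), beside 32.9% and 2.35% of all genes. The 2 families described here were chosen after their values were seen. Replication-dependent histone genes, which are short and mostly without introns, had 12 of 39 tested genes lower (30.8%) and 1 higher, Hist1h4i, with a median log2 ratio of -0.68. Hist2h2ac was at 35.9 CPM where 70.8 was expected (-0.98), and Hist1h4c had -0.68. In the same cells Mki67 and Top2a, which the matching used, were below their expected levels. The replication list went the other way, with 0 of 25 lower, 2 higher and a median of 0.31. Zinc finger genes named Zfp had 95 of 234 tested genes lower (40.6%), with a median of -0.75. Both shares stand beside 32.9% of all genes.

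A few of the 64 are named here, chosen after their values were seen. Cdkn1c, the p57 inhibitor of cyclin-dependent kinases, was at 18.2 CPM where 54.4 was expected (-1.58), and Cdkn1b, the p27 inhibitor, at 15.5 where 32.1 was expected (-1.04). Fst, which binds activin and myostatin, had -0.99. Spry2, an inhibitor of receptor tyrosine kinase signals, was at 22.5 CPM where 41.7 was expected (-0.89), and Pnn, a protein of nuclear speckles, at 80.7 where 151 was expected (-0.91).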
